A study of Mus musculus with 3 samples.

Results

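Pou5f1 (which encodes Oct4), Nanog and Sox2 are the core transcription factors of the pluripotent state. They are 3 of 28578 gene names with a value on all arrays, taken by the gene name in the scanner files. Each had 1 of the 41174 gene probes on an array, printed as 1 spot. Expression was measured in mouse embryonic stem (ES) cells of the line E14.1 on 3 one-colour Agilent arrays, 1 per time point of a differentiation towards liver. Day 0 was the undifferentiated ES cell, kept on gelatin in serum-free N2/B27 medium with 1000 U/ml LIF and 10 ng/ml BMP4. Day 5 was ES cell-derived definitive endoderm, grown on collagen IV with 30 ng/ml activin A and neither LIF nor BMP4. Day 7 was the early hepatic stage, after 2 more days with 30 ng/ml BMP4 and 10 ng/ml basic FGF beside the activin A. All 3 samples came from 1 cell line, no genetic change is named in the labels, and the series gives 1 array per day. Time in culture and the change of factors cannot be told apart.

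Oct4 is a POU-domain protein, Sox2 an HMG-box protein and Nanog a homeodomain protein. Oct4 and Sox2 bind DNA side by side on composite elements, made of a Sox site next to an octamer-like site, in the enhancers of many ES cell genes, among them their own genes and Nanog. The 3 proteins thus form a loop that sustains itself in ES cells and in the epiblast of the embryo. The loop is taken apart when the germ layers form: Sox2 stays on in the neural plate and returns in the foregut, whereas Nanog and Oct4 persist for a time in the posterior epiblast and primitive streak and are kept in germ cells. Activin and Nodal signalling is known to sustain Nanog in epiblast-stage cells.

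Each value rests on the hybridisation of 1 probe of 60 bases, shown here because no second probe of these genes was on the array. The Pou5f1 probe (chr17:35647280-35647340, mm9) starts at base 903 of the transcript it was designed on. The Nanog probe (chr6:122664091-122664150, mm9) starts at base 1625 of its transcript, and the Sox2 probe (chr3:34550773-34550832, mm9) at base 1846. Exons and coding parts were not assigned, since no mm9 annotation was used here. The whole Pou5f1 probe and the first 30 bases of the other two, as given in the scanner files, read 5′ to 3′ as follows.
Pou5f1 probe: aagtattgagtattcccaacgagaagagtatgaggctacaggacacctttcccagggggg
Nanog probe: cttctgagctctatttacaacttggtgtgt
Sox2 probe: tggcaatcaaatgtccattgtttataagct
The RefSeq table lists 6 pseudogenes related to Pou5f1 and 2 related to Nanog, and 0 under the name of Sox2. Hybridisation by transcripts of such copies was not tested.

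The 3 promoters are shown because the genes were lower together and are known to bind one another's products. These are the 250 bases before the first listed start of each gene (RefSeq, GRCm38.p6, plus strand): chr17:35505782-35506031 for Pou5f1, chr6:122707239-122707488 for Nanog and chr3:34649745-34649994 for Sox2. Capitals mark the POU half-site ATGCAAA, the Sox half-site CATTGT and the nuclear receptor half-site AGGTCA, each searched on both strands.
Pou5f1 promoter: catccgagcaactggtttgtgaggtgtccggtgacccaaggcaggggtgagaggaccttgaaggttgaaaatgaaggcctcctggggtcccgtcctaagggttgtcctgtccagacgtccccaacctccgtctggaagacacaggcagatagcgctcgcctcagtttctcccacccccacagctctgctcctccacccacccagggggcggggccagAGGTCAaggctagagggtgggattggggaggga
Nanog promoter: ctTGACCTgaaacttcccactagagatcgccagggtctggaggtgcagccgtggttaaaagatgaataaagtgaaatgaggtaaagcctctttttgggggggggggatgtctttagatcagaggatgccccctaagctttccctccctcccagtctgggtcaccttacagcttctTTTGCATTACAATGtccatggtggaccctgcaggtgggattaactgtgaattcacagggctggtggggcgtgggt
Sox2 promoter: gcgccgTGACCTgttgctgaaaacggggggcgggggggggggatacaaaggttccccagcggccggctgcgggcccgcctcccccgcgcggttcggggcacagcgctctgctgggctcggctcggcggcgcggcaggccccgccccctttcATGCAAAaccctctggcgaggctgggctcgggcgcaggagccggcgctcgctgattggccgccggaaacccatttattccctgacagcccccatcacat
In the Nanog window the POU and Sox half-sites stood together on the minus strand, at -75 to -62 from the start. They formed the composite searched for, CATTGT, then 1 base of any kind, then ATGCAAA, which overlaps both half-sites. Of 32851 promoter windows of the same length, 2 (0.00609%) held that composite, and both were windows of Nanog. These 2 windows overlap and hold the same 1 site, at chr6:122707414-122707427. The Sox2 window held an isolated POU half-site at -99 to -93, a motif found in 4.12% of windows. The Sox half-site CATTGT was in 10.7% of windows. The Pou5f1 window shown held neither half-site but had AGGTCA, the letters read by nuclear receptors of the kind that silence or sustain Pou5f1, at -33 to -28. A second listed Pou5f1 window, chr17:35508557-35508806, not shown, held a Sox half-site on the minus strand at -158 to -153. AGGTCA was in 14% of windows, among them those of Nanog, at -248 to -243, and of Sox2, at -244 to -239. The GC box GGGCGG, left in lower case, was in the Pou5f1 and Sox2 windows and in 32.7% of all. These matches describe the letters of these windows only, and the distal enhancers of the 3 genes lie outside them.

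Of 43379 gene spots per array, between 70.9% and 71.7% were well above background and 0 were saturated. Signals are given on the log2 scale minus the 75th percentile of the array, which was 1564 intensity units on day 0, 2051 on day 5 and 2053 on day 7. Probes printed as 10 spots had a median spot SD of 0.080 (day 0), 0.076 (day 5) and 0.077 (day 7) on that log2 scale, so that a difference between 2 arrays has a spot SD of about 0.11. That spread is technical, from within 1 array, and leaves out culture, RNA and labelling. With 1 array per day there is no test, p-value or standard error for any difference below.

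All 3 factors were bright on day 0 and lower on each later array. Pou5f1 had a processed signal of 14971 intensity units on day 0, 3787 on day 5 and 1118 on day 7, or 3.26, 0.88 and -0.88 as scaled log2 signals. Nanog had 11240 units on day 0, 2374 on day 5 and 896 on day 7, or 2.85, 0.21 and -1.20 on the log2 scale. Sox2 had 29477 units on day 0, 2484 on day 5 and 1495 on day 7, or 4.24, 0.28 and -0.46. Day 0 was thus the highest and day 7 the lowest array for each gene. None of the 3 was gone by day 7: each probe was still marked as well above background, at 32.6 (Pou5f1), 24.0 (Nanog) and 39.7 (Sox2) times the local background of its spot. The extraction software's own error for each of these 9 signals was close to 10% of the signal. Levels of different probes are not set against each other, since probes differ in how well they bind. Fewer cells that hold these transcripts and less of them per cell cannot be told apart in bulk RNA.

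**Figure D1:**
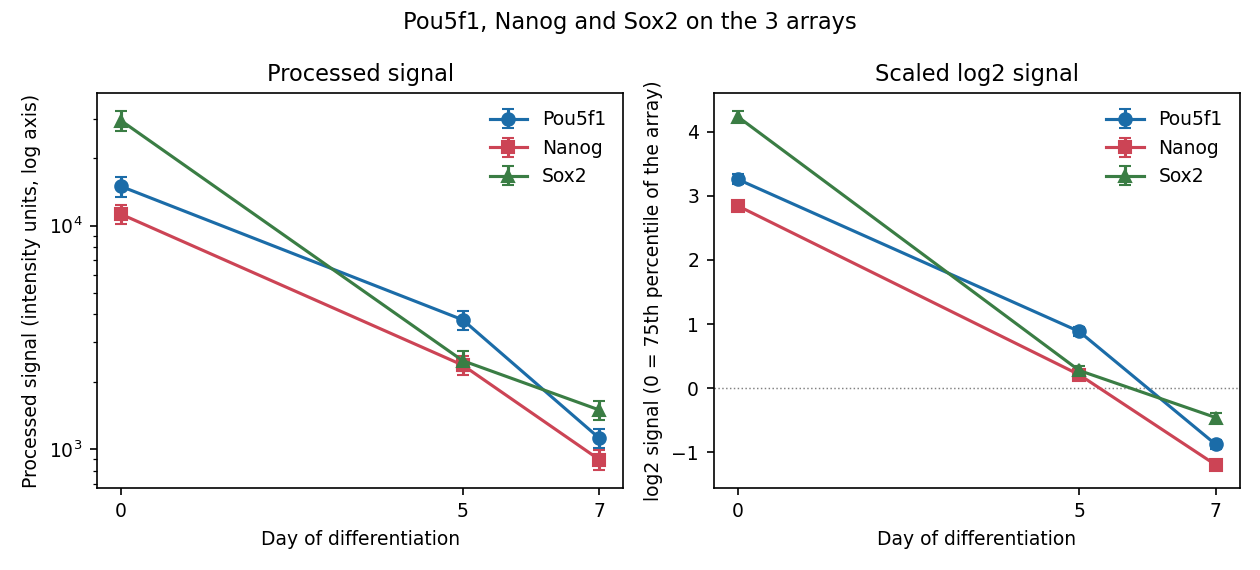
Signals of the Pou5f1, Nanog and Sox2 probes on days 0, 5 and 7, 1 array per day. The left panel shows processed signal on a log axis with the extraction software's error, and the right panel the log2 signal minus the array's 75th percentile with the median spot SD as error bars. Each line goes down at both steps; the Sox2 line is steeper before day 5 than after it, and the Pou5f1 and Nanog lines are steeper after it. Heights of different probes are not comparable.

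Day 5 against day 0 asks how far the core factors were lost when ES cells became definitive endoderm. Sox2 was 15.6-fold lower on day 5, Nanog 6.21-fold and Pou5f1 5.19-fold, as scaled log2 differences of -3.96, -2.63 and -2.37. All 3 of 3 were past the 2-fold limit, which 16.1% of the 21653 gene names compared were past in the same direction. All 3 were also at least 4-fold lower, as were 5.69% of names. Without any scaling between arrays the intensities were 11.9-fold (Sox2), 4.74-fold (Nanog) and 3.95-fold (Pou5f1) lower. Among all genes compared, a difference as low as that of Sox2 was shared by 1.06%, of Nanog by 3.35% and of Pou5f1 by 4.29%. The Sox2 difference exceeded that of Pou5f1 by 1.59 on the log2 scale and that of Nanog by 1.33, or 10.2 and 8.49 times the spot SD of such a gap. Nanog and Pou5f1 were 0.26 apart, 1.67 times that SD. The day 0 Sox2 spot was read from the low-gain scan and scaled up by the software, as were 2204 gene spots (5.08%) on that array. The Sox2 spots of the other days were not, and the effect of that step on the Sox2 difference was not tested.

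Day 7 against day 5 covers the 2 days with BMP4 and basic FGF, and here the order of the 3 genes was the other way round. Pou5f1 was 3.39-fold lower on day 7 than on day 5 (-1.76 on the log2 scale) and Nanog 2.65-fold (-1.41). Sox2 was 1.66-fold lower (-0.73), short of the 2-fold limit but 6.79 times the spot SD. Thus 2 of 3 were past the limit, against 8.38% of all genes, and 0 were at least 4-fold lower, against 2.57%. A difference as low as that of Sox2 was shared by 12.6% of all genes compared, of Nanog by 4.86% and of Pou5f1 by 3.28%. The Pou5f1 difference was larger than that of Sox2 by 1.03 on the log2 scale, 6.71 times the spot SD of the gap, and that of Nanog was larger than that of Sox2 by 0.67, or 4.40 times. The day 7 Sox2 spot was placed by the grid without being marked as found, like 11.6% of gene spots on that array, and carried no outlier mark.

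Day 7 against day 0 spans the whole route. Sox2 was 25.9-fold lower (-4.69 on the log2 scale), Pou5f1 17.6-fold (-4.14) and Nanog 16.5-fold (-4.04), all 3 of 3 past the 2-fold limit that 19.1% of genes were past, and past the 4-fold limit that 7.02% were past. The differences of Pou5f1 and Nanog were 0.09 apart, less than 1 spot SD of such a gap (0.157). The Sox2 difference minus that of Pou5f1 was -0.56 (log2), and minus that of Nanog -0.65, or 3.54 and 4.14 times the spot SD of such a gap. Day 5 held 84.4% of the log2 difference between day 7 and day 0 for Sox2, 65.2% for Nanog and 57.4% for Pou5f1. Per day, Sox2 differed by -0.79 (log2) over the first 5 days and by -0.37 over the last 2. Pou5f1 differed by -0.47 and then -0.88 per day, and Nanog by -0.53 and -0.70. These are averages over intervals with no array inside them. The 3 comparisons share arrays, so 1 high or low spot enters 2 of them.

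**Figure D2:**
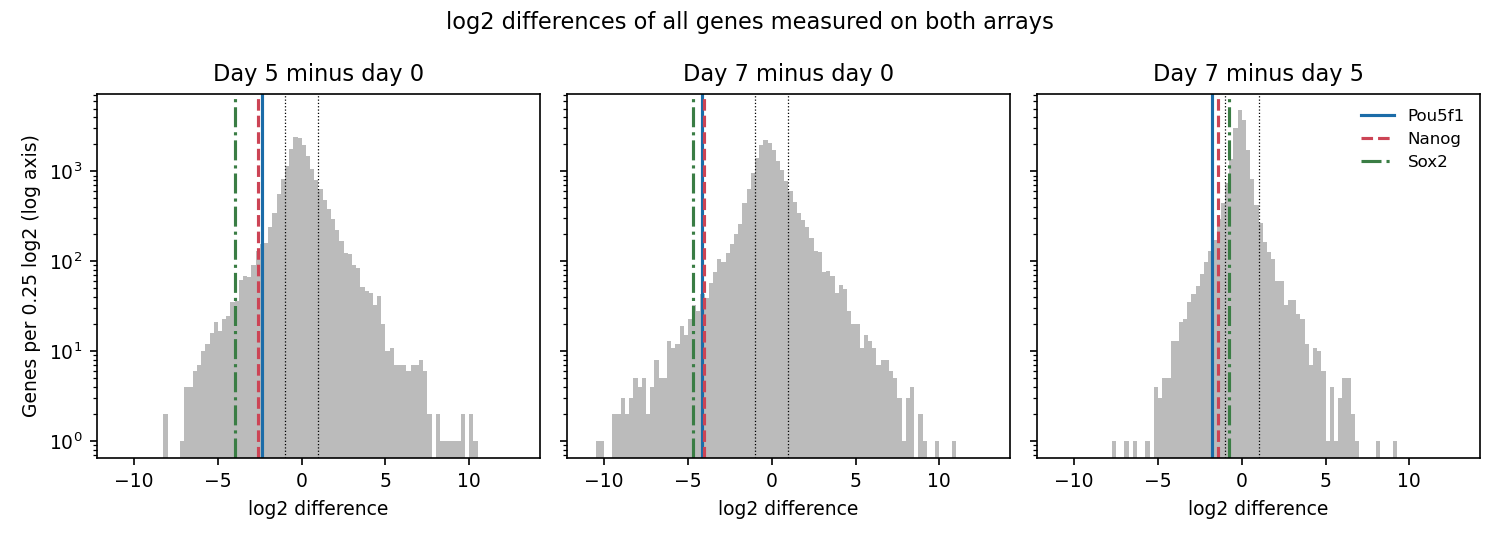
Distribution of log2 differences over genes measured on both arrays of a pair, for day 5 minus day 0, day 7 minus day 0 and day 7 minus day 5, with the number of genes per bin on a log axis. Vertical lines mark Pou5f1, Nanog and Sox2, and dotted lines the 2-fold limits. Of the 3 lines, that of Sox2 lies furthest to the left at -3.96 for day 5 minus day 0 and nearest to 0 at -0.73 for day 7 minus day 5.

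The median gene measured on both arrays differed by -0.13 (log2) on day 5 and -0.20 on day 7 against day 0, and by -0.09 on day 7 against day 5. Relative to that median the day 5 minus day 0 differences were -3.83 for Sox2, -2.50 for Nanog and -2.24 for Pou5f1. Under the 7 alternative settings, the Sox2 difference for day 5 minus day 0 lay between -4.07 and -3.23, that of Nanog between -2.75 and -2.02, and that of Pou5f1 between -2.49 and -1.67. Sox2 stayed under 2-fold for day 7 minus day 5 in each of them, and Pou5f1 and Nanog past it.

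**Figure D3:**
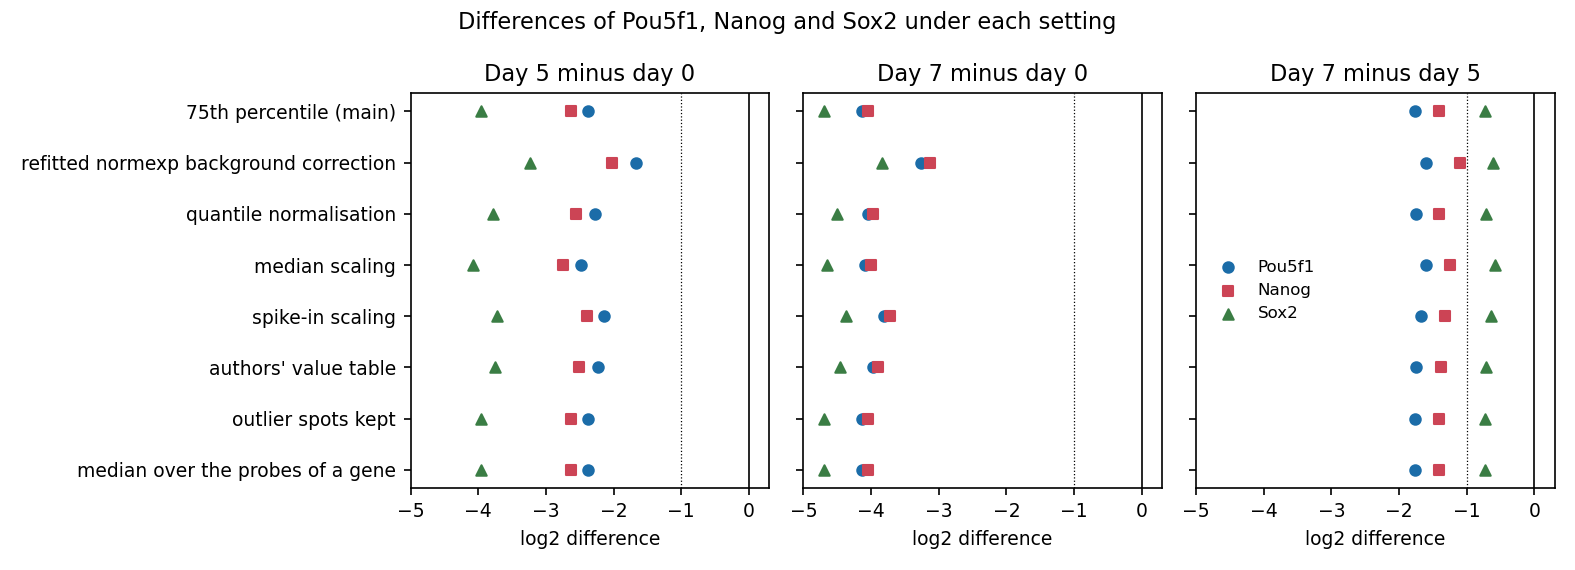
log2 differences of Pou5f1, Nanog and Sox2 under the main setting and 7 alternatives, 1 row each, for the 3 pairs of days. The dotted line marks the 2-fold limit. Sox2 is the leftmost of the 3 in each row for day 5 minus day 0 and the rightmost for day 7 minus day 5. The rows for outlier spots kept and the median over probes equal the main row by construction. Median and spike-in scaling cannot change the order of the genes.

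The genes nearest to each factor in the shape of the 3 signals were found among 14080 named genes well above background on all 3 arrays, by the distance between log2 signals centred on each gene's own mean. With 3 arrays such a shape holds little, and the distances only describe these arrays. Nearest to Pou5f1 were Ddx58, the RNA sensor RIG-I (distance 0.0051), Slc7a3, a cationic amino acid transporter (0.087), Tmc5 (0.107), Catsperz (0.120) and Ppef2 (0.147). Nearest to Nanog were Il1r2, a decoy receptor for interleukin-1 (0.037), Cbs, an enzyme of cysteine synthesis (0.068), Ccdc13 (0.078), Exoc3l (0.101) and Pycard, an inflammasome adaptor (0.102). Nearest to Sox2 were Zfp459 (0.072), Dlgap3 (0.099), Blnk (0.112), Ctrc (0.153) and Cdyl2 (0.166). Nanog was the 14th nearest gene to Pou5f1, at a distance of 0.260. Sox2 ranked 329th of the 14080 genes from Pou5f1 (distance 1.14) and 267th from Nanog (0.937). Counted from Sox2, Nanog ranked 144th and Pou5f1 223rd.

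The network around the core factors was described in 4 gene lists. The first holds 18 proteins found in complexes with Oct4 or Nanog in ES cells, of which 17 were measured. On day 5, 7 of 17 were at least 2-fold lower than on day 0 and 1 was higher, where 16.1% of all genes compared were lower and 16.5% higher. The median log2 difference was -0.37, against -0.11 over all genes. Esrrb, an orphan nuclear receptor of naive ES cells, was 57.0-fold lower, the Oct4-binding orphan receptor Nr0b1 (Dax1) 10.0-fold, the telomere-associated Rif1 3.73-fold and the zinc finger factor Zfp281 3.28-fold. Arid3b, a DNA-binding ARID protein, was 2.52-fold higher. On day 7, 8 of 17 were lower than on day 0 and 0 higher (all genes 19.1% and 16.2%; median -0.75, all genes -0.19), with Esrrb at 1370-fold and Nr0b1 at 38.4-fold. A second, dimmer Esrrb probe differed by -4.28 (log2) on day 5 and -5.20 on day 7 against day 0, and by -0.92, within 2-fold, on day 7 against day 5. Against day 5, 3 of 17 were lower on day 7 (all genes 8.38%): Esrrb (24.0-fold), Nr0b1 (3.84-fold) and Sall1 (2.64-fold), a spalt-family zinc finger factor. Its relative Sall4, which binds Oct4 and was chosen for mention after its values were seen, stayed within 2-fold on both later days, at 0.57 and -0.36 (log2) against day 0. So did the histone deacetylases Hdac1 (-0.36 and -0.51) and Hdac2 (-0.37 and -0.75), also picked after the fact. With the refitted normexp background correction, 5 of 17 partners were lower on day 5 than on day 0, against 44.2% of all genes. For day 7 against day 0 these were 7 of 17 and 39.5%.

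The second list holds 14 genes with a described Oct4, Sox2 or Nanog site, of which 13 were measured; Fgf4 was not analysed here. On day 5, 9 of 13 were lower than on day 0 (all genes 16.1%) and 1 higher (all genes 16.5%), with a median of -1.41. Spp1 (osteopontin) was 77.1-fold lower, Fbxo15, an F-box protein used as an ES cell reporter, 54.2-fold, Zfp42 (Rex1) 42.3-fold and the RNA-binding protein Dppa5a 17.0-fold. Lefty1, a Nodal inhibitor that is also induced by activin and Nodal, was 129-fold higher. On day 7, 10 of 13 were lower than on day 0 (all genes 19.1%) and 0 higher (all genes 16.2%), with a median of -2.22. Zfp42 was 562-fold lower, Spp1 369-fold, Dppa5a 259-fold and Fbxo15 72.7-fold. Against day 5, 6 of 13 were lower on day 7 (all genes 8.38%; median -0.86, all genes -0.06), led by Lefty1 (110-fold), Dppa5a (15.2-fold), Zfp42 (13.3-fold) and the Nodal co-receptor Tdgf1 (8.04-fold). Mycn, a growth-promoting Myc factor picked after its values were seen, was 2.65-fold lower on day 5 but within 2-fold of day 0 on day 7 (-0.44 on the log2 scale).

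**Figure D4:**
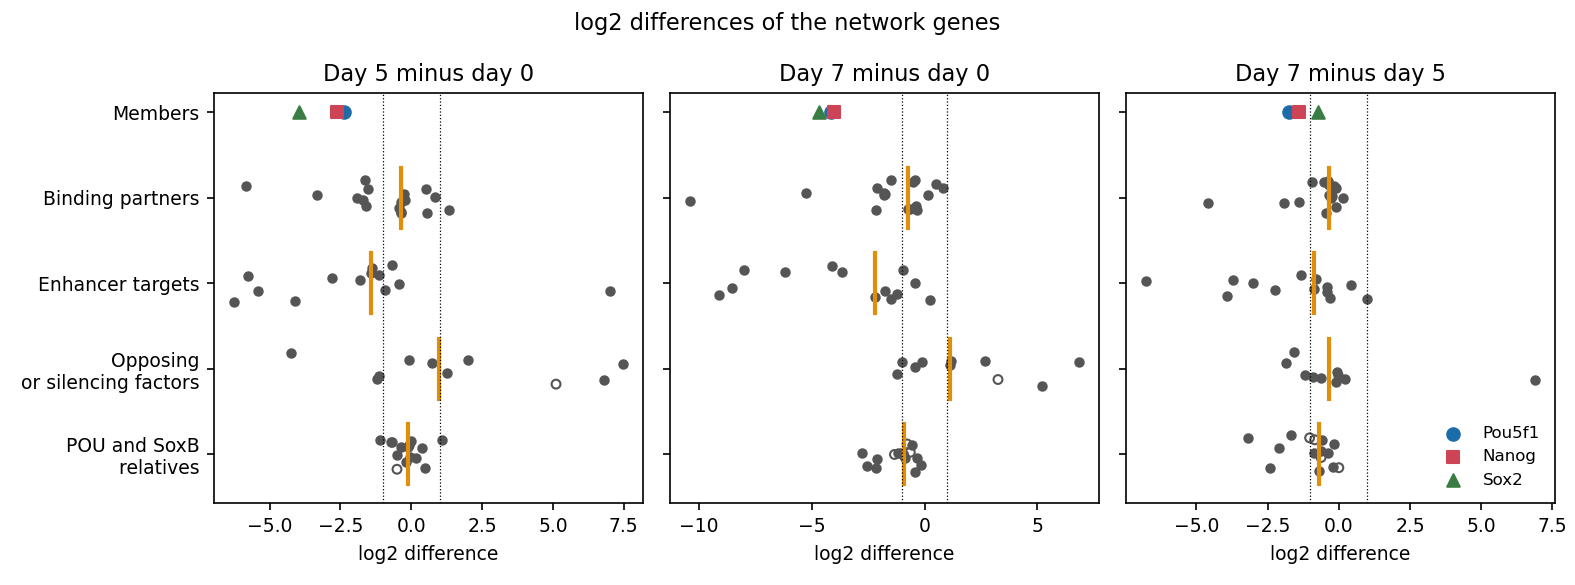
log2 differences of the 3 factors (top row) and of the genes in 4 lists for the 3 pairs of days; each dot is a gene, hollow dots are bounds or genes dim on both arrays, and orange bars are list medians. Dotted lines mark the 2-fold limits. The list of genes with Oct4, Sox2 or Nanog sites has medians of -1.41, -2.22 and -0.86, and Lefty1 stands far to the right for day 5 minus day 0.

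The third list holds 11 factors known to oppose or silence the core genes, of which 10 were compared. Nr2f1 was not well above background on any array. On day 5, 5 of 10 were higher than on day 0 (all genes 16.5%) and 3 lower (all genes 16.1%), with a median of 0.99. Sox17, which replaces Sox2 beside Oct4 in endoderm, was 179-fold higher, Gata6, an endoderm factor opposed by Nanog, 111-fold, and the nuclear receptor Nr2f2 (COUP-TFII) at least 34.6-fold. The DNA methyltransferase Dnmt3b was 4.02-fold and Nr6a1 (GCNF), a nuclear receptor that represses Pou5f1, 2.37-fold higher. Cdx2, the trophectoderm and hindgut factor that opposes Oct4, was 18.8-fold lower on day 5, p53 (Trp53) 2.29-fold and Dnmt3a 2.19-fold. Another probe of Trp53 and another of Dnmt3a differed by -0.16 and 0.93 on the log2 scale, and 1 further Gata6 probe by -0.02.

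On day 7, 6 of 10 of these factors were higher than on day 0, against 16.2% of all genes, and 1, Dnmt3a, was lower (2.32-fold; all genes 19.1%). The median was 1.14. Sox17 was 116-fold, Gata6 36.8-fold, Nr2f2 at least 9.52-fold and Cdx2 6.36-fold higher. Nr6a1 was 2.25-fold and Dnmt3b 2.15-fold higher. Against day 5, Cdx2 was the only one of the 10 past 2-fold upwards, 119-fold higher on day 7 (5.97% of all genes were at least 2-fold higher). Nr2f2 (3.63-fold), Gata6 (3.01-fold) and Tcf7l1 (2.26-fold), a Wnt-pathway repressor of Nanog, were lower, 3 of 10 against 8.38% of all genes. Other Dnmt3a probes differed by 0.83 and -0.44 (log2) for day 7 minus day 0. With the median over probes, normexp or spike-in scaling, 0 of these factors were lower on day 7 than on day 0. In the main setting the list held members on both sides in each comparison, for day 7 minus day 0 through that 1 Dnmt3a probe.

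The fourth list holds relatives of the members, 18 POU-domain and SoxB genes, of which 15 were compared. Of 16 on the array, 5 were not well above background on at least 1 day, and the counts depended on the background correction. On day 5, 1 of 15 was lower, Pou4f1 (2.14-fold), and 1 higher, Sox21 (2.14-fold), with a median of -0.12. Both shares were below those of all genes, 16.1% lower and 16.5% higher. The refitted normexp correction put 12 of them past the limit downwards, and 44.2% of all genes. On day 7, 7 of 15 were lower than on day 0 (all genes 19.1%) and 0 higher (all genes 16.2%), with a median of -0.93. Pou4f1 was 6.82-fold, Pou3f1 (Oct6), a POU factor of the late epiblast, 5.84-fold, Pou3f3 4.43-fold and Sox21 4.30-fold lower. Against day 5, 5 of 15 were lower on day 7 (all genes 8.38%): Sox21 (9.21-fold), Pou3f1 (5.36-fold), Pou3f3 (4.34-fold), Pou4f1 (3.19-fold) and Pou2f2 (at least 2.03-fold). The 2 other Sox21 probes differed by -0.08 and 0.60 for day 5 minus day 0, both within 2-fold, by -1.16 and 0.04 for day 7 minus day 0, and by -1.08 and -0.55 for day 7 minus day 5. Another Pou4f1 probe, brighter but left out on day 0 as an outlier spot, differed by -0.14 for day 7 minus day 5, within 2-fold. Sox1, the SoxB1 relative of the neural plate, stayed within 2-fold throughout, at -0.36 and -0.55 (log2) on days 5 and 7 against day 0.

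The labelled stages were checked against marker genes. The 4 ES cell markers Zfp42, Esrrb, Klf4 and Tfcp2l1 had a summed signal of 189 times the array's 75th percentile on day 0, 4.35 times on day 5 and 10.2 times on day 7. Their sum was thus 43.4-fold lower on day 5 and 18.5-fold lower on day 7 than on day 0. Such a sum mostly follows its brightest probes, and on day 7 the brightest was Klf4, 6.05-fold lower than on day 0. Tfcp2l1 was then 9.17-fold lower, Zfp42 562-fold and Esrrb 1370-fold. The median log2 difference of the 4 was -5.46 on day 5 and -6.17 on day 7 against day 0. Beside these markers, Sox2 was 15.6-fold lower on day 5 and 25.9-fold on day 7, Nanog 6.21-fold and 16.5-fold, and Pou5f1 5.19-fold and 17.6-fold. Klf4 and Tfcp2l1 were higher on day 7 than on day 5, by 2.92 and 1.71 on the log2 scale, while Esrrb and Zfp42 were lower, at -4.59 and -3.73. The 5 definitive endoderm markers summed to 0.313 on day 0, 131 on day 5 and 35.9 on day 7, and the 5 hepatic ones to 0.117, 0.700 and 27.3. Alb, the main serum protein of mature liver, was not well above background on day 7.

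Cells of other kinds can hold these transcripts, so their markers are given for the whole list. Between 70.9% and 71.7% of all gene spots were well above background on an array. The 4 late epiblast markers (Fgf5, Otx2, Pou3f1 and Zic2) were all well above background on each array and summed to 14.8 on day 0, 96.2 on day 5 and 24.3 on day 7. On day 5, 3 of 4 were higher than on day 0 (all genes 16.5%), and Pou3f1 was within 2-fold (-0.12, log2). On day 7, 1, Fgf5, was 40.3-fold higher than on day 0 (all genes 16.2%). Pou3f1 was then 5.84-fold lower (all genes 19.1%), and Otx2 (-0.16, log2) and Zic2 (0.64) were within 2-fold. Of 7 measured germ cell markers, all 7 were well above background on each array, and they summed to 16.1, 6.47 and 1.30. On day 5, 5 of 7 were lower than on day 0 (all genes 16.1%) and 1, Prdm1, which endoderm also expresses, was 8.02-fold higher (all genes 16.5%). On day 7, 5 of 7 were lower than on day 0 (all genes 19.1%) and 0 higher (all genes 16.2%). Of 6 neural markers, 4 were well above background on days 5 and 7, and they summed to 1.04, 2.91 and 3.63. Nes, which many dividing progenitors express, was the one past 2-fold, higher on both days (all genes 16.5% and 16.2%). It was the brightest of the 6 on each array, so the sum mostly followed Nes. Neurog2 and Olig2 were dim on days 5 and 7. The 4 trophoblast markers summed to 0.996, 8.10 and 13.5, with Elf5 dim on day 0. Among them, on day 5 against day 0, Eomes, which the primitive streak also expresses, was 108-fold higher and Elf5 at least 53.9-fold higher. Cdx2 was 18.8-fold lower and Hand1 within 2-fold (-0.29 on the log2 scale). By day 7 all 4 were at least 2-fold higher than on day 0, against 16.2% of all genes. Eomes was then 51.2-fold, Hand1 12.7-fold, Elf5 at least 12.1-fold and Cdx2 6.36-fold higher. Of the foregut markers, Nkx2-1 and Pdx1 were dim on all 3 arrays, and Tbx1 was higher on day 5 than on day 0 by 4.53 (log2). The part of such cells in the signals of Pou5f1, Nanog and Sox2 was not tested.

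**Figure D5:**
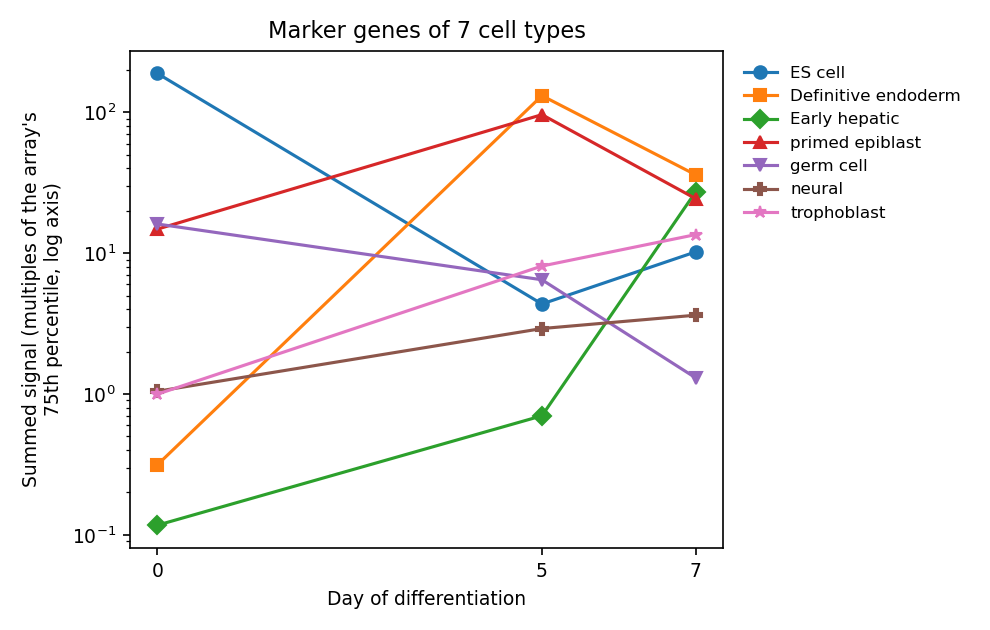
Summed signal of the marker genes of 7 cell types on days 0, 5 and 7, as multiples of the array's 75th percentile on a log axis. ES cell markers were at 4.35 on day 5 and 10.2 on day 7, late (primed) epiblast markers were at 96.2 on day 5, and hepatic markers at 27.3 on day 7. Each sum mostly follows the brightest genes of its list.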

How the data were processed

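RNA of 3 samples was measured, grouped by the cell type in the labels. Per the file headers, the authors extracted the arrays with Agilent Feature Extraction 10.5.1.1, whose deposited intensity values (processed signal, on a linear scale) were used. The deposited value table holds log2 values with equal medians (7.17) on all 3 arrays, which the authors equalised by a method not given in the sources used here. From the log2 of each processed signal, the 75th percentile of its array's gene spots was subtracted. Outlier and control spots were left out (149, 104 and 131 gene spots on days 0, 5 and 7), and spots of a probe averaged. Other genes were named through RefSeq accession (24842 probes) or symbol (6044), and represented, among probes with a value on all arrays, by the one well above background on most arrays, then the brightest. A gene was called at a 2-fold difference with the brighter probe well above background. A dim probe took the lowest signal well above background, or its own value if that was higher, giving "at least N-fold".

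The 21653 gene names well above background on at least 1 array were compared. From each list up to 4 genes with the largest differences in each direction, and those behind a count of 5 or fewer, were named. The members and lists were chosen with earlier results of these data known. Alternatives were normexp (limma 3.58.1, offset 50), quantile, median and spike-in scaling, the authors' table, outlier spots kept, and the median over a gene's probes. For counts, a 4-fold limit and detection on all arrays were added. The 2-fold calls were checked on simulated signals all set well above background, which left the rule for dim probes unchecked. The number of arrays limits the precision.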

Additional observations from a re-analysis of the deposited data

How the results depend on the processing

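No paired analysis was possible because each day has 1 array, and for the same reason no sample could be left out. Of 63 alternative values of the members' differences, 34 moved by less than the spot SD, 29 moved further and 0 changed sign. With outlier spots kept and with the median over probes, the values could not move, since each member had 1 probe with no outlier mark. Of 135 alternative counts, 113 were within 1.5 times the main count, that ratio included, and 22 were not. That ratio takes no account of the share of all genes, which also moved with the setting. The scalings shifted all genes: the median gene for day 5 minus day 0 was at -0.13 (log2) with the main setting, -0.64 with the refitted normexp correction, -0.24 with median scaling, 0.11 with spike-in scaling (2 probes) and -0.07 in the authors' table. With normexp, 44.2% of genes were at least 2-fold lower on day 5 than on day 0, and 39.5% on day 7. The partner list then had 5 and 7 of 17 lower, and the list of genes with sites 6 and 8 of 13. For day 7 minus day 5 the share of all genes was 2.03%, beside 3 of 17 partners and 6 of 13 genes with sites.

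In the order Pou5f1, Nanog and Sox2, the differences for day 5 minus day 0 were -1.67, -2.02 and -3.23 with normexp, -2.49, -2.75 and -4.07 with median scaling, -2.14, -2.40 and -3.72 with spike-in scaling and -2.23, -2.52 and -3.75 in the authors' table. For day 7 minus day 0 they were -3.27, -3.12 and -3.84 with normexp, -3.81, -3.71 and -4.37 with spike-in scaling and -3.97, -3.90 and -4.46 in the authors' table. For day 7 minus day 5 they were -1.60, -1.10 and -0.61 with normexp and -1.61, -1.25 and -0.58 with median scaling. Quantile normalisation put Sox2 at -3.79 (day 5) and -4.50 (day 7) against day 0. The gap between Sox2 and Pou5f1 lay between -1.59 and -1.51 for day 5 minus day 0 and between 0.99 and 1.05 for day 7 minus day 5 in all 8 settings. Median and spike-in scaling subtract 1 value per array and cannot change a gap between genes. Only normexp, quantile normalisation and the authors' table could move it. The causes of these shifts were not tested.

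At a 4-fold limit, 0 of the 3 factors were lower for day 7 minus day 5, the partner list had 2, 4 and 1 lower genes for day 5 minus day 0, day 7 minus day 0 and day 7 minus day 5, and the list of genes with Oct4, Sox2 or Nanog sites had 5 for day 5 minus day 0. The opposing factors then had 1, 0 and 0, and the relatives 0, 4 and 3. With normexp the opposing factors had 1 lower gene on day 5 and 0 on day 7 against day 0, and the relatives 12 and 14, and 2 for day 7 minus day 5. With spike-in scaling the opposing factors had 1 and 0 lower genes against day 0 and the relatives 0 on day 5. With the median over probes these were 1 and 0, and 2 on day 5.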

Other observations

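Probes within 50 kb of the members' probes were listed by position (mm9), after the data had been seen. Sox2 lies inside the long noncoding gene Sox2ot, named B230215L15Rik in the files. The brightest of its 3 probes, 26.0 kb from the Sox2 probe, had a log2 signal of -1.84 on day 0. It was at -6.05 on day 5 and, not well above background, at -6.66 on day 7. It was 18.5-fold lower on day 5 than on day 0, beside 15.6-fold for Sox2. Of the other 2 Sox2ot probes, 1 was well above background on day 0 only and 1 on day 7 only. A probe of AK043872, also near Sox2, was at least 2.31-fold lower on day 5 and at least 2.80-fold on day 7 than on day 0. Next to Pou5f1, the cell cycle gene Tcf19, 2.46 kb away, was 3.34-fold lower on day 5 than on day 0 but within 2-fold of day 0 on day 7 (-0.26 on the log2 scale). Further off, Cdsn was 4.65-fold lower on day 5 and 7.59-fold on day 7 than on day 0, and Psors1c2 2.57-fold and 3.74-fold. Cchcr1 was 2.45-fold lower on day 5, but its day 7 difference from day 0 (-0.93, log2) was within 2-fold. The H2-Q10 probes all stayed within 2-fold of day 0. Their log2 differences ran from -0.98 to 0.70 on day 5 and from -0.74 to 0.82 on day 7. Among all genes compared, 16.1% passed the 2-fold limit downwards by day 5 and 19.1% by day 7. Slc2a3, the glucose transporter gene 14.0 kb from the Nanog probe, was 2.22-fold higher on day 5 and 2.98-fold higher on day 7 than on day 0, while a dimmer probe of it differed by 0.47 and 1.23 on the log2 scale.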
